A study of Mus musculus with 24 samples.

Results

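Exonic sense lncRNAs are long noncoding transcripts that lie on the same strand as a gene and share exon sequence with it. The class holds noncoding splice forms of protein-coding genes, transcripts that keep an intron, and pieces of a processed gene or pseudogene. For this reason a probe for such a transcript may read RNA that the coding gene also makes, and the name of the host gene says where the transcript comes from and not what it does. Here, 427 exonic sense lncRNA probes of a mouse lncRNA array were followed over 24 arrays. They were taken from the published lists of lncRNAs found in brain and in F9 cells, as far as those lists were held here, which is their brightest part: 1543 lncRNAs of brain and 1397 of F9 cells, 1817 probes in all. Of these, 433 were labelled exonic sense. Leaving out 6 that were also named in other tables of the study gave 427 of the 60804 transcript probes on the array. A total of 213 were in both lists, 157 in the brain list only and 57 in the F9 list only. Since brain and F9 levels chose the probes, values in these groups are given as a description, and tests were run only among the other groups. The lowest listed members had a log2 level on the first array of 3.88 in brain (Aldoc) and 4.93 in F9 cells (Plrg1), and the lowest lncRNAs of any class held here stood at 3.88 and 4.93. On those arrays 7.09% of all probes in brain and 5.93% in F9 cells were brighter than these limits.

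Tissues came from male ICR mice aged 8 weeks that carried no treatment or engineered allele: brain, heart, kidney, liver and testis. The mouse lines F9, GC-1 and GC-2 were grown without treatment, and each of the 8 groups had 3 arrays. F9 is an embryonal carcinoma line. GC-1 is an immortalized germ cell line placed after the type B spermatogonium and before the primary spermatocyte. GC-2 is a line with spermatocyte traits. Both are established lines kept in culture and hold no Sertoli cells, Leydig cells or spermatids, and the 3 samples of each line are cultures of 1 line. The study calls the 3 samples of each group biological replicates.

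The level of a probe is given as the log2 of its background-corrected signal over the 75th percentile of all transcript probes on that array. A level of 0 is therefore the 75th percentile of the array, and a difference of 1 is a doubling. A probe was called detected in a group when the scanner software flagged it as well above background on all 3 arrays. The 75th percentile itself ranged from an intensity of 30.7 on a liver array to 384 on a testis array. Results between testis and the other groups are therefore given under 3 scalings. These are the 75th percentile of all probes, quantile normalization, and the 75th percentile of probes detected on all arrays. For calls and differences between 2 groups, the last used the arrays of the fit: 14538 probes for the 15 tissue arrays and 19294 for the 12 arrays of testis and lines. For spreads, the order of groups and host list medians it used the 13551 probes detected on all 24 arrays. The tissue labels were checked with the marker genes whose probes could be named, 7 of 48. The probes for Apoa1, Gap43, Mobp and Snap25 are those of lncRNAs of these names, and the other 3 are mRNA probes. Apoa1 was detected on the 3 liver arrays and on no other array, and Mobp and Snap25 on the 3 brain arrays only. Gap43 was highest in brain (7.31), but was also detected on all arrays of F9 (5.16), GC-1 and GC-2 and on 2 heart arrays. Star, a gene of steroid synthesis, was highest in testis (2.58), and Zfp42, a gene of pluripotent cells, was highest in F9 cells (4.65). At lower levels Star was also detected on all arrays of GC-1 (−2.23) and GC-2 (−1.55), and on 1 array each of brain, heart and F9 cells. Zfp42 was also detected on all testis arrays (−1.61). Stra8, a gene of germ cells entering meiosis, was detected in testis (0.10) and at a higher level in F9 cells (1.25), and on no other array. Liver replicate 1 stood apart in its negative control spots, whose 95th percentile was 13.6 against 2.97 to 4.97 on the other arrays.

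The 427 transcripts belonged to 416 host genes, and 303 carried the symbol of the host. Their RNA lengths ranged from 203 to 9254 bases with a median of 897. They were annotated by Ensembl (251), UCSC (157), RefSeq (15) and a lincRNA catalogue (4). Chromosome 11 held 51 of them, chromosome 2 held 40 and the X chromosome 12. The probe lay within the span of the host gene for 401, and in the last 20% of its length for 199. A total of 259 probes (60.7%) covered more than 100 genomic bases, that is, their 60 bases were not contiguous in the genome. The tables named the mRNA of the host as a further target for 80 probes, other transcripts for 7, and no other target for 340. Where the mRNA of the host is named, the signal cannot be assigned to the lncRNA. Positions are on GRCm38: 94 of 97 RefSeq lncRNAs of the lists lay within their gene on that build.

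Some of these probes held short repeated words. The probes shown here are those whose shared letters recur in the results, with the probe sequence 5′ to 3′, the shared word in capitals and the position of the probe on GRCm38. Cyp51, in the gene of a sterol demethylase, lay at chr5:4103124-4103381 on the minus strand, and Prps1, in the gene of a nucleotide precursor synthase, at chrX:140465383-140465442 on the plus strand. Both held a run of TG near the 3′ end. Atrn (chr2:130999086-130999145, plus strand) held TG runs broken by single bases. 4930451C15Rik (chr16:17553355-17554432, minus strand) held a run of CA.
Cyp51: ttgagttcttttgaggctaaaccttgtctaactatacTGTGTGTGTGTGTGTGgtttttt
Prps1: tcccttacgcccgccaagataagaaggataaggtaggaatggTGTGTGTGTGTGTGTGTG
Atrn: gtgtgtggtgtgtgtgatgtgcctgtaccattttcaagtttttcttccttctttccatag
4930451C15Rik: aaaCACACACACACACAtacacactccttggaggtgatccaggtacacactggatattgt

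The next probes held a word of the B2 or B1 repeat, short elements that occur at a great many places in the mouse genome. Thap1 (chr8:26159340-26159412, plus strand) and Rnf135 (chr11:80189952-80190011, plus strand) held an 11-base word of B2. Ttc19 (chr11:62282525-62282588, plus strand) and Reps1 (chr10:18104963-18105026, plus strand) held an 11-base word of B1. The probe of Tpm1, the gene of a tropomyosin, is given for contrast: it holds none of these words and covers chr9:67032816-67035994 on the minus strand, so its bases are not contiguous in the genome.
Thap1: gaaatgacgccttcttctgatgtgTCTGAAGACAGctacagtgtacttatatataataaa
Rnf135: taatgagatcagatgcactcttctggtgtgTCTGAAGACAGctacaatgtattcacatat
Ttc19: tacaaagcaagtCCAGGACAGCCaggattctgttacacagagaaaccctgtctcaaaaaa
Reps1: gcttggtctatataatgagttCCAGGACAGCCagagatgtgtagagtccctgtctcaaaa
Tpm1: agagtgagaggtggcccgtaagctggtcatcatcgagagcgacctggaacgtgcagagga

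Exonic sense lncRNAs picked for their signal in brain or F9 cells were detected nearly everywhere. Of the 427, 389 (91.1%) were detected in all 8 groups, against 22.3% of all transcript probes. This share was close to that of the other lncRNA classes of the same lists, which had passed the same limits of brightness: 89.4% of bidirectional, 92% of exonic antisense, 91.8% of intergenic, 96.9% of intronic antisense and 96.9% of intronic sense lncRNAs. The other classes were taken whole, whereas 6 probes named in other tables of the study had been left out of the exonic sense set. No test was made between classes. Testis had 423 of the 427, kidney 416, heart 414, GC-2 408, GC-1 406 and liver 395, beside 426 in brain and 413 in F9 cells. Liver had the fewest on each of its 3 arrays (396, 402 and 405). All transcript probes were also detected least often in liver. All 8 groups were reached by 212 of the 213 probes in both lists, 51 of the 57 in the F9 list only, and 126 of the 157 in the brain list only. Since these counts include brain and F9 cells, which chose the lists, they are a description. The probes in both lists also had a higher median level over the other 6 groups (6.26) than those in the brain list only (4.08) or the F9 list only (3.71).

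**Figure D1:**
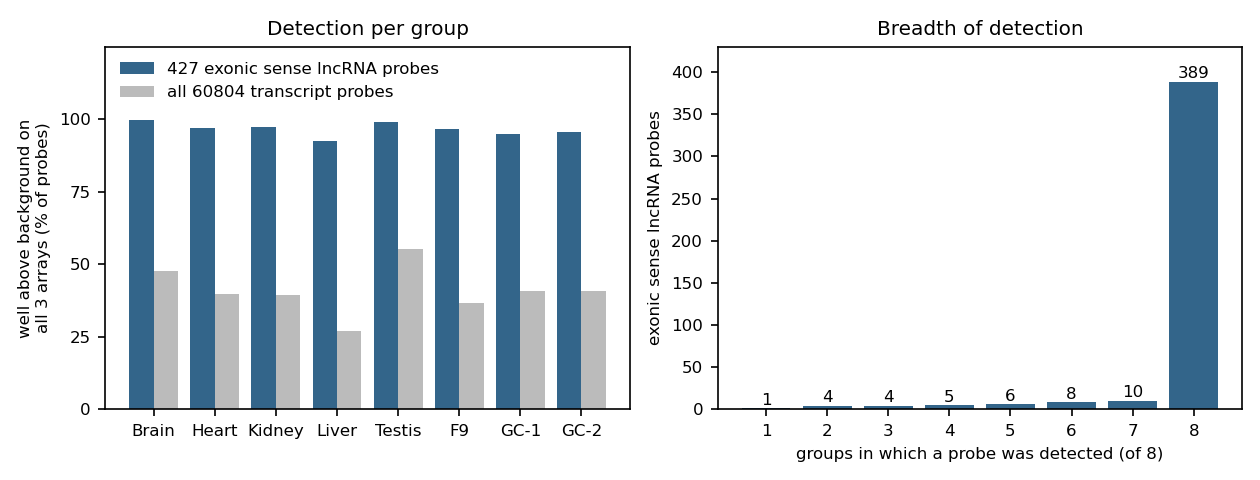
Detection of exonic sense lncRNA probes. The left panel gives the percentage of the 427 probes and of all 60804 transcript probes that were well above background on all 3 arrays of a group, and the right panel counts the 427 probes by the number of groups in which they were detected. The bar at 8 groups holds 389 probes, and liver has the lowest share of both sets.

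Levels over the 6 groups that the lists did not use had a median of 4.88 across the 427 probes, and the range between the highest and lowest of these 6 group means had a median of 2.91. All transcript probes had medians of −3.10 and 3.32. The order of the ranges depended on the processing: after quantile normalization the members had 2.35 and all probes 2.27, and with normexp background correction 2.41 and 1.89. The other classes of the lists, again taken whole, had median ranges between 2.74 and 3.34. Probes that list the host mRNA as a target had a higher median level (6.18) than those with no other target listed (4.54). The level of a probe depends on the probe as well as on the RNA, so no order among transcripts is drawn from it.

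The highest signals belonged to 3110009E18Rik (mean of the 6 groups 10.99), Rplp2-ps1 (10.75), Thap1 (10.71), Plod3 (10.69), Gm21984 in the host Sez6l2 (10.56), Asb6 (10.55), AK204572 in Eef1a1 (10.53) and Cox7c (10.47). Rplp2-ps1 is a pseudogene of a ribosomal protein, Eef1a1 is a translation elongation factor, Plod3 hydroxylates lysines of collagen and Cox7c is a subunit of cytochrome c oxidase. Both 3110009E18Rik and Thap1 hold the B2 word. The most even members stood within a narrow band in all 8 groups: the group means of Abl1, in the gene of a tyrosine kinase, spanned 0.61, those of AK145396 in Maml3 0.70, of Aurkb 0.71, of AK213344 in Nudt9 0.76, of mouselincRNA0277 in Gprc5c 0.77, of Alox15 0.84, of Grid1 0.93 and of Wdr62 1.01. Aurkb is a kinase of dividing cells, Grid1 a glutamate receptor subunit of neurons and Alox15 a lipoxygenase. These probes were picked for their small range, so that none followed a single tissue is part of the choice. Abl1 stood at 3.56 ± 0.39 in heart, 4.17 ± 0.17 in kidney, 3.91 ± 0.13 in liver, 3.57 ± 0.32 in testis, 3.92 ± 0.08 in GC-1 and 3.65 ± 0.13 in GC-2 (SD, n = 3), and the arrays of these groups overlapped for most pairs.

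A few members were narrow. Tdh, the gene of threonine dehydrogenase, an enzyme known for its use in pluripotent mouse cells, was detected in F9 cells only. Its F9 levels were 5.30, 5.58 and 5.54, and it was not well above background on any array of the other 7 groups, which puts F9 cells at least 289-fold above heart and at least 108.8-fold above liver. Resp18, a protein of neuroendocrine cells, stood at 6.44, 6.55 and 6.36 in brain and at −2.76, −2.64 and −3.15 in testis, and was not well above background on any array of the other 6 groups. Aldoc, the brain form of aldolase, had 3.88, 3.80 and 3.47 in brain, against −3.18, −3.23 and −2.86 in testis. Gria1, an AMPA receptor subunit, had 5.27, 5.15 and 5.72 in brain, and in heart (−2.22, −2.25 and −1.38) and testis (−2.84, −2.32 and −2.21) it was weak but above background. Each of these had been listed for the group in which it was high, so the height there is part of the choice. The levels of Resp18, Aldoc and Gria1 in testis, weak but above background on all 3 arrays, were not part of that choice. Testis arrays could, however, show weaker signals. The lowest level flagged as well above background averaged −4.64 in testis, −2.70 in heart, −2.71 in kidney, −1.29 in liver, −2.87 in GC-1 and −2.99 in GC-2. A level as weak as that in testis could thus go undetected in those groups. For Resp18, testis was at least 1.01-fold above GC-1 and at least 1.10-fold above GC-2, which sets it apart from neither.

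Probes with a TG run agreed closely over the arrays. Of the 1817 listed lncRNA probes, 12 (0.66%) held at least 12 bases of alternating TG (TGTGTGTGTGTG) in the direction of the probe, and 4 of them were exonic sense (0.937% of the 427): Cyp51, Prps1, Prmt6 and Peli1. Their hosts have unrelated roles, in sterol synthesis, nucleotide synthesis, arginine methylation and ubiquitin transfer. Cyp51 stood at 10.15, 9.30 and 10.20 in liver, 4.07, 4.31 and 4.52 in kidney, 3.87, 3.55 and 3.67 in heart, and 2.72, 2.26 and 2.23 in testis. Prps1, on another chromosome, stood at 9.77, 9.05 and 10.11 in liver, 3.90, 4.25 and 4.41 in kidney, 3.73, 3.58 and 3.64 in heart, and 2.65, 2.26 and 2.28 in testis. Thus the profiles of these probes were nearly the same down to single arrays. Pearson's r between the 4 probes over the 24 arrays lay between 0.974 and 0.999.

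The other 8 listed TG probes, of other lncRNA classes, ran the same way. Of all 12, 11 had their highest group mean in liver, with all 3 liver arrays above every other array, and 10 had their lowest in brain. The exception for liver, Gm6548, was highest in F9 cells by this scaling and in liver after quantile normalization. Pairwise r over the 66 pairs had a median of 0.983 and a range of 0.792 to 0.999. In addition, 5 listed probes (0.275%) held the complementary letters, at least 12 bases of alternating CA (CACACACACACA), and 4930451C15Rik was the only exonic sense one among them. All 5 were highest in brain and lowest in liver, under each of the scalings tried, with r of 0.963 to 0.997 over their 10 pairs. 4930451C15Rik stood at 6.87, 7.31 and 7.31 in brain, 5.55, 5.85 and 6.75 in heart, 3.02, 4.14 and 3.80 in testis, and −1.37, 1.83 and 0.39 in liver. TG and CA probes ran against each other, with a median r of −0.84 (range −0.868 to −0.625) over 60 pairs. These are correlations over arrays that share tissues and scaling, and they are given without a p. Whether the signal of these probes came from the named transcript or from other RNA with the same letters was not tested.

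**Figure D2:**
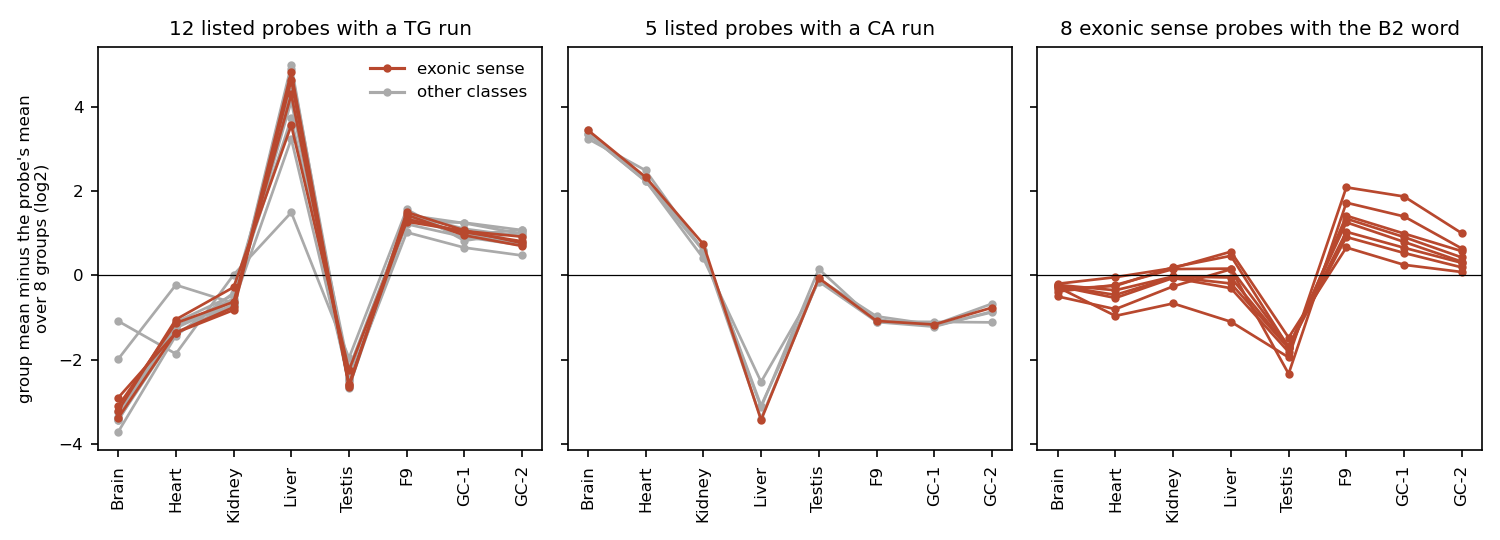
Profiles of probes that share a repeated word. Each line is a probe, and each point is its mean over the 3 arrays of a group minus its mean over the 8 groups (log2), with exonic sense probes in red and other listed lncRNA classes in grey. TG probes peak in liver and CA probes in brain with a minimum in liver, whereas probes with the B2 word peak in F9 cells and have their minimum in testis.

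The B2 word was present in 8 exonic sense probes (1.87%) and in 27 of the 1817 listed probes (1.49%), always in the direction of the probe. The 8 were 3110009E18Rik, Thap1, Rnf135, Telo2, Myo1c, Appl1, Iqcf3 and Mri1. Their hosts range from a transcription factor (Thap1) and a ubiquitin ligase (Rnf135) to a myosin (Myo1c) and an endosomal adaptor (Appl1). Their median level was 9.71, against 4.88 for all members, and 7 of the 8 had a level among the 40 highest. More than the word was shared: Telo2, Thap1 and Iqcf3 have at least 25 bases in common pair by pair, as do 3110009E18Rik, Myo1c and Rnf135. These probes are therefore not independent in sequence. Pairwise r of the 8 over 24 arrays had a median of 0.942 (0.614 to 0.997), against 0.249 for pairs of members without a B2 or B1 word. Those pairs were not matched for level, and the profile was not confined to probes with the word. Ccdc141, a bright member with neither word, had 10.42, 10.99 and 10.94 in F9 cells, its highest group, and 7.44, 7.71 and 7.49 in testis, its lowest. Plod3, Sugp2, Pdia3, Osbpl7 and Mcm10, also without either word, had the same highest and lowest groups, whereas Asb6 was highest in liver. How many bright members ran this way in all was not counted, so the profile is not read as particular to the B2 word. Thap1 stood at 11.42, 11.87 and 11.86 in F9 cells, 11.26, 11.33 and 11.42 in GC-1, 10.87, 11.08 and 11.04 in GC-2, 11.15, 11.45 and 11.20 in liver, and 9.08, 9.21 and 9.01 in testis. All 8 were highest in F9 cells and lowest in testis. This order depended on the scaling: after quantile normalization none of the 8 was highest in F9 cells and 1 was lowest in testis, whereas with the 75th percentile of probes detected on all arrays 7 were highest in F9 cells and 7 lowest in testis. The B1 word was in 3 members (0.703%; 6 of 1817 listed, 0.33%): Ttc19 and Reps1 in the direction of the probe and Abcc6 on the opposite strand.

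Testis was compared with heart, kidney and liver to ask which exonic sense lncRNAs differ between the testis and other organs. In tissues, fewer cells of a type and less RNA per cell cannot be told apart. A call needed a difference of at least 5-fold and an adjusted p of 0.05 or less (limma over all probes, Benjamini-Hochberg). Against heart, 13 members were higher in testis and 92 lower, against kidney 12 and 109, and against liver 22 and 129. These are 24.6%, 28.3% and 35.4% of the members, and the same rule called 29.7%, 27.8% and 55.0% of all probes. In one direction, 11.5%, 11.5% and 10.3% of all probes were higher in testis and 18.2%, 16.3% and 44.7% lower. The members were chosen for their signal in brain or F9 cells, and probes in the study's tables of specific transcripts were left out, so their share of higher testis calls is partly set by the choice and is not read against that of all probes. The number of lower calls moved with the scaling. The share of lower among called members was 87.6% against heart, 90.1% against kidney and 85.4% against liver. It became 79.1%, 77.7% and 64.9% after quantile normalization, and 55.2%, 46.9% and 44.4% with the percentile of probes detected on all arrays. The median difference of the members from heart moved from −1.39 to −0.97 and −0.35, and that of all probes from −1.55 to −0.21 and −0.51. Under all 3 scalings, 13 members were higher and 32 lower than in heart (11.5% and 6.62% of all probes), 12 and 30 than in kidney (11.5% and 5.9%), and 22 and 33 than in liver (10.3% and 6.45%).

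**Figure D3:**
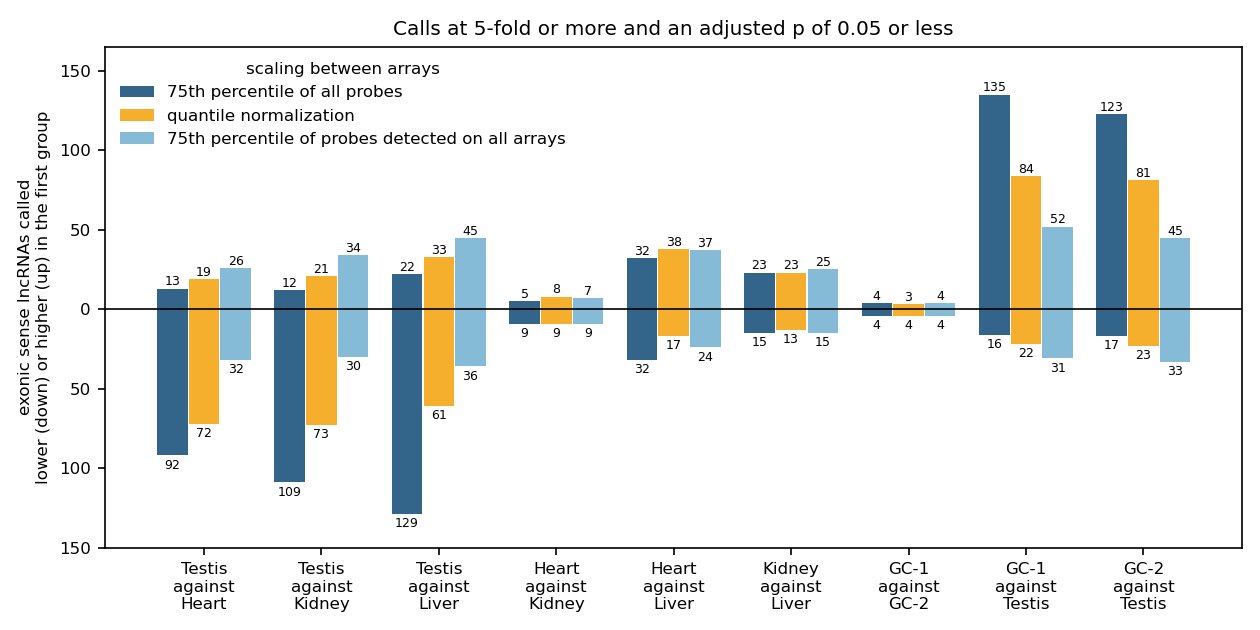
Number of exonic sense lncRNAs called at 5-fold or more with an adjusted p of 0.05 or less, upward for higher and downward for lower in the first group of each comparison. Each comparison has 3 bars, one per scaling between arrays. Lower calls in testis against heart go from 92 to 72 and 32 across the scalings, while the 8 calls between GC-1 and GC-2 hardly move.

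Heart, kidney and liver differed less among each other. Heart and kidney differed in 14 members (3.28% against 8.15% of all probes). Of these, 5 were higher and 9 lower in heart, where 3.82% and 4.33% of all probes were, and all 14 held under the 3 scalings (3.62% and 3.84% of all probes, 7.45% in either direction). Heart and liver differed in 64 (15% against 10.4% of all probes), 32 in each direction (4.42% higher and 6.03% lower in heart among all probes). Under the 3 scalings 32 were higher and 16 lower (4.4% and 4.21% of all probes, 8.61% in either direction). Kidney and liver differed in 38 (8.9% against 8.15% of all probes), 23 higher and 15 lower in kidney (3.41% and 4.74%). Under the 3 scalings 22 and 13 held (3.36% and 3.35%, 6.71% in either direction). Between heart and liver the calls were split evenly by the main scaling (32 and 32), and the share of lower calls was 30.9% after quantile normalization and 39.3% with the percentile of probes detected on all arrays.

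In heart, 2 members were higher than in each of kidney, liver and testis, with no overlap of arrays (0.468%; 1.76% of all probes), under each of the 3 scalings. Tpm1, whose tropomyosin is a part of the thin filament of muscle, stood at 11.09, 11.09 and 11.29 in heart, 3.78, 3.96 and 3.61 in kidney, 2.15, 2.32 and 2.10 in liver and 1.13, 1.02 and 1.17 in testis. It was 166-fold higher than in kidney (log2 difference 7.38, SE 0.20, adjusted p = 1.3e-12, limma), and it was also high in GC-1 (7.28, 6.65 and 6.58) and GC-2 (6.72, 7.22 and 7.34). Jam2, a junctional adhesion molecule of endothelial cells, stood at 6.34, 6.33 and 6.28 in heart, against 2.59, 2.24 and 2.27 in testis, a 15.4-fold difference, and 2.06, 2.61 and 2.31 in liver. Its level in F9 cells (7.45, 6.89 and 7.13) was above that of heart.

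There were 3 members lower in heart than in the other 3 tissues (0.703%; 0.316% of all probes). Cks2, a small subunit of cyclin-dependent kinases, stood at −0.87, −0.98 and −1.51 in heart, against 4.71, 4.71 and 4.74 in kidney, 4.03, 4.50 and 3.95 in liver, and 4.95, 4.73 and 4.99 in testis. The difference from liver, the nearest, was 38.8-fold (adjusted p = 2.2e-10, limma). Cks2 was low in brain too (−0.38, −0.77 and −0.82), and high in the 3 lines (5.42 to 6.77). Gabarapl1, an autophagy protein, stood at 2.14, 2.07 and 2.37 in heart against 5.03, 5.18 and 4.33 in liver, a 6.29-fold difference that fell under 5-fold after quantile normalization. H2-Bl, a class I histocompatibility gene, was not well above background on any heart array. Kidney had 0.71, 0.65 and 1.64 and testis 0.60, 1.09 and 1.20, respectively at least 12.97-fold and at least 12.67-fold above heart. In liver H2-Bl gave −2.39, 4.68 and −0.96, so the liver mean rested on replicate 2. In GC-2 it gave 3.38, −4.71 and −4.24, thus on replicate 1.

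In kidney, 2 members were higher than in the other 3 tissues (0.468%; 1.45% of all probes) and none was lower (0.074% of all probes). Gss, which makes glutathione, stood at 9.32, 9.20 and 8.85 in kidney, 7.08, 6.53 and 6.77 in liver, 4.71, 3.98 and 4.53 in heart and 2.35, 1.92 and 2.02 in testis. The difference from liver was 5.04-fold (log2 difference 2.33, SE 0.27, adjusted p = 7.8e-06, limma), just over the limit, and that from testis 130-fold. AK053689 in Ntng1, a gene of axon guidance, had −0.47, −0.35 and −0.29 in kidney, and was not well above background on any array of liver or testis and on 1 of 3 in heart. Kidney was at least 19.26-fold above testis and at least 1.89-fold above liver, the latter a bound below the 5-fold limit. AK053689 stood far higher in brain (4.19, 4.44 and 4.84), for which it was listed.

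In liver, 11 members were higher than in heart, kidney and testis (2.58%; 2.88% of all probes), 8 of them under the 3 scalings (1.87% of all probes, the same share as among the members). Of the 11, 4 were the TG probes Cyp51, Prps1, Prmt6 and Peli1, which were 48.0, 43.9, 30.3 and 14.4 times as high as in kidney, the nearest tissue (adjusted p from 5.7e-10 to 1.5e-07, limma). Atrn, with its broken TG runs, was also highest in liver (8.77, 9.63 and 10.47 in liver against 4.46, 5.44 and 5.65 in kidney). The remaining 6 were Mbd3, Ltb, Wdr54, Gm21974 in Prss53, Hsp90b1 and Lsg1.

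Mbd3, a protein of the NuRD chromatin complex, stood at 10.83, 10.33 and 10.14 in liver, 5.57, 5.73 and 5.53 in heart, 4.29, 4.19 and 4.02 in kidney and 3.59, 3.17 and 3.14 in testis. It was 28.3-fold above heart, the nearest (log2 difference 4.82, SE 0.27, adjusted p = 2e-09, limma). Its profile differed from that of the TG probes, since brain was second (7.03, 6.68 and 6.10) and the 3 lines were low (4.03 to 4.44). Ltb, the gene of lymphotoxin B, ran a like course: 8.23, 7.76 and 7.73 in liver, 4.74, 4.15 and 4.39 in heart, and 3.90 to 4.12 in the 3 lines. Hsp90b1, a chaperone of the endoplasmic reticulum, stood at 8.68, 8.47 and 8.59 in liver and between 5.13 and 6.06 in heart, kidney and testis, 7.5-fold above heart. It did not stay above 5-fold over testis under the other 2 scalings.

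There were 6 members lower in liver than in the other 3 tissues (1.41%; 0.296% of all probes), all under the 3 scalings. With normexp background correction EIG 180, Ldhb and Soga2 lost the call against the nearest of these tissues. BC038906 in Cds1, an enzyme of phospholipid synthesis, was detected on 1 of 3 liver arrays (−2.77, −3.07 and −1.25), and stood at 5.35, 5.82 and 5.43 in kidney, 5.32, 5.07 and 5.17 in testis and 3.93, 2.97 and 1.72 in heart. Its probe also matches the host mRNA. Ldhb, the lactate dehydrogenase subunit common in heart, was not well above background on any liver array. Heart had 5.85, 5.46 and 6.20, kidney 5.20, 6.12 and 6.26 and testis 0.86, 1.47 and 1.63, at least 136.4-fold, at least 138.4-fold and at least 5.97-fold above liver. Soga2 was likewise not well above background on any liver array. It stood at 1.15, 0.09 and 1.01 in heart and at 1.71, 1.33 and 1.39 in testis, at least 4.11-fold and at least 6.80-fold above liver. EIG 180 in Apcdd1 (−2.94, −3.42 and −3.77 in liver), AK219268 and the CA probe 4930451C15Rik were the remaining 3. For EIG 180, kidney was at least 4.37-fold above liver. This bound and that of Soga2 from heart lay below the 5-fold limit, so these calls rest on liver signals not well above background.

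**Figure D4:**
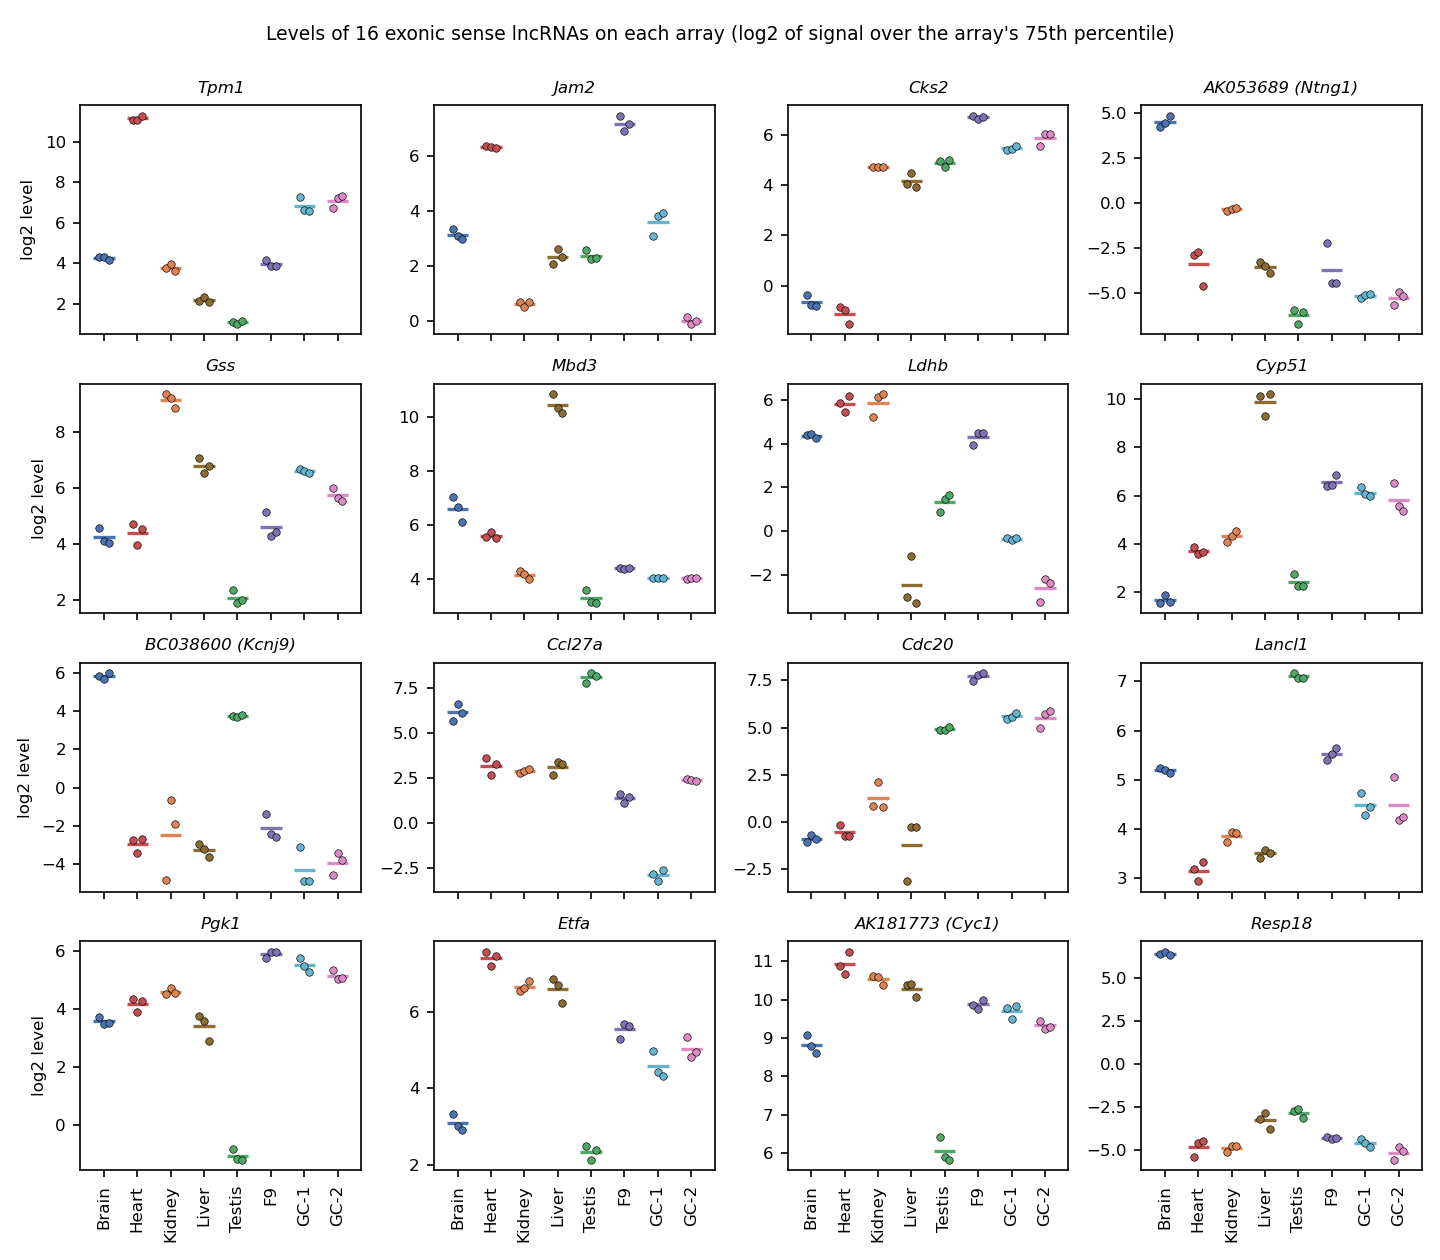
Log2 levels of 16 exonic sense lncRNAs on each of the 24 arrays, with host genes in parentheses where the symbol differs. Points are arrays and bars are group means (3 arrays each), and the vertical scale differs between panels. Tpm1 leads in heart, Gss in kidney among the tissues, Mbd3 and Cyp51 in liver, and the testis arrays of Pgk1, Etfa and AK181773 lie below all others.

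In testis, 8 members were higher than in heart, kidney and liver (1.87%; 7.98% of all probes), and all 8 held under the 3 scalings. BC038600 in Kcnj9, a potassium channel of neurons, stood at 3.72, 3.71 and 3.80 in testis. It was not well above background on any liver array, on 2 of 3 heart arrays or on 1 of 3 kidney arrays (−4.82, −0.65 and −1.92), and testis was at least 32.8-fold above liver. Its brain level was higher still (5.83, 5.70 and 5.99). Ccl27a, a chemokine, stood at 7.78, 8.35 and 8.19 in testis, against 3.62, 2.66 and 3.27 in heart, 2.78, 2.89 and 3.03 in kidney and 2.65, 3.43 and 3.29 in liver, a 30.3-fold difference from heart (log2 difference 4.92, SE 0.32, adjusted p = 3e-09, limma). Brain had 5.71, 6.65 and 6.14.

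AK013192 in Csnk1g2, a casein kinase, stood at 8.52, 8.66 and 8.82 in testis, against means of 4.02 ± 0.47 in heart, 4.36 ± 0.23 in kidney and 3.94 ± 0.12 in liver (SD, n = 3). GC-1 (4.11 ± 0.17) and GC-2 (4.33 ± 0.57) lay in the same range. Its probe also matches the host mRNA. Lancl1 stood at 7.16, 7.07 and 7.06 in testis, against 3.73, 3.93 and 3.93 in kidney, the nearest of the 3, and 5.25, 5.20 and 5.14 in brain. Ttc9 had 1.24, 0.91 and 1.03 in testis, and was not well above background on any array of kidney or liver, at least 13.6-fold and at least 5.10-fold below testis. Serp2, a small protein of the endoplasmic reticulum, had 1.38, 1.64 and 1.39 in testis and −1.98, 0.83 and −1.60 in kidney.

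Both remaining ones belong to genes of dividing cells. Cdc20, an activator of the anaphase promoting complex, stood at 4.88, 4.88 and 5.03 in testis, 0.84, 2.09 and 0.79 in kidney, −0.16, −0.76 and −0.73 in heart and −3.15, −0.30 and −0.28 in liver. Pttg1, the securin that this complex degrades, stood at 5.45, 5.37 and 5.48 in testis, against 2.51, 3.07 and 2.45 in heart and 2.28, 2.37 and 2.65 in kidney. In GC-1, Cdc20 had 5.47, 5.57 and 5.75 and Pttg1 had 7.03, 6.80 and 7.06. In F9 cells Pttg1 had 6.16, 4.96 and 5.12, which overlapped with testis.

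A group of 48 members was lower in testis than in each of the other 3 tissues by the main scaling (11.2%; 6.59% of all probes), but 5 were so under the 3 scalings (1.15% of all probes), a share close to that of all probes. These were Pgk1, Etfa, AK181773 in Cyc1, S100a16 and Elac2. Pgk1, a glycolytic kinase on the X chromosome, had −0.81, −1.15 and −1.19 in testis, against 4.36, 3.91 and 4.28 in heart, 4.52, 4.75 and 4.56 in kidney and 3.76, 3.59 and 2.91 in liver, 22.2-fold lower than in liver (log2 difference −4.47, SE 0.25, adjusted p = 7e-10, limma). Etfa, which passes electrons from fatty acid oxidation to the respiratory chain, had 2.50, 2.13 and 2.40 in testis, against 7.58, 7.21 and 7.48 in heart, and 19.3-fold more in liver. AK181773, whose host Cyc1 is the cytochrome of respiratory complex III and whose probe matches the host mRNA too, had 6.43, 5.91 and 5.82 in testis and 10.38, 10.42 and 10.08 in liver, an 18.8-fold difference. S100a16 had −1.21, −1.29 and −1.06 in testis and 3.00, 3.19 and 2.73 in liver. Elac2, an endonuclease that trims tRNA precursors, had 0.32, −0.13 and −0.04 in testis, against 3.30, 3.43 and 3.98 in heart and 6.39, 6.63 and 5.66 in kidney. In brain, Etfa was nearly as low as in testis (3.33, 3.01 and 2.91).

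By the function of the host gene and the main scaling, members in genes of mitochondria and of protein folding lay furthest below in testis, and members in cell cycle genes least. Each list is described by the difference between the testis mean and the mean of heart, kidney and liver, whose median was −1.56 over all members and −1.73 over all probes. The 8 members in respiratory chain genes had a median of −2.80, from −4.53 (AK181773) to −1.47 (Cox16), and all 8 lay below 0. Of these, 6 were called lower in testis than in heart, 5 than in kidney and 5 than in liver. The 12 in genes of the mitochondrial ribosome and import, which come from 10 genes since Mtch1 has 3, had −2.45, with 9, 6 and 5 called lower and none higher. The same calls took 18.2%, 16.3% and 44.7% of all probes. Mrpl42 had 2.56, 2.54 and 2.51 in testis and 7.44, 7.53 and 7.77 in heart, whereas Mrpl47 had 4.47, 4.36 and 4.52 in testis against 4.28, 3.84 and 4.30 in heart. The 9 in genes of protein folding in the endoplasmic reticulum had −2.63, with 4, 5 and 7 called lower. They come from 8 genes since P4hb has 2, which ran together over the arrays, so these counts are of probes and not of genes. AK217614 in Xbp1, the transcription factor of the unfolded protein response, had a mean of 3.91 ± 0.13 in testis (SD, n = 3) against 8.84 ± 0.24 in liver, a 30.5-fold difference, and its probe matches the host mRNA.

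The medians stayed below that of all members under the other 2 scalings: −1.92 and −1.60 for the respiratory chain, −2.02 and −1.26 for the mitochondrial ribosome and import, and −2.33 and −1.43 for protein folding, against −0.88 and −0.36 for all members. With normexp these 3 medians were −2.015, −1.672 and −1.864, against −0.8635 for all members and −1.453 for all probes. The order of lists changed there: glycolysis and citrate cycle, at −1.858, lay below the mitochondrial ribosome and import. The counts did not stay: under the 3 scalings together, 3, 2 and 1 of the respiratory chain members, 1, 1 and 0 of the mitochondrial ribosome and import members and 0, 3 and 3 of the protein folding members were called lower than in heart, kidney and liver. Of all probes, 6.62%, 5.9% and 6.45% were called lower in the same way. The 15 members in cell cycle and DNA replication genes had a median of −0.19, which was 0.34 after quantile normalization and 1.00 with the percentile of probes detected on all arrays. They ran from −3.20 (Smc1a, a cohesin subunit on the X chromosome) to 5.12 (Cdc20), with 3, 2 and 2 called higher and 2, 1 and 2 called lower. Of all probes, 11.5%, 11.5% and 10.3% were called higher and 18.2%, 16.3% and 44.7% lower. With so few members, the counts are not read as a trait of these hosts.

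The other lists lay closer to the median of all members: −1.16 for the 18 in RNA binding and splicing genes, −1.22 for the 16 in chromatin genes, −1.34 for the 26 in genes of synapse and neuron, −1.50 for the 17 of ubiquitin and proteasome, −1.56 for the 5 in ribosomal protein genes, −1.74 for the 7 of glycolysis and citrate cycle, −1.78 for the 8 of chemokines and immune signalling, and −2.03 for the 10 of the cytoskeleton. The RNA binding members come from 17 genes and those of synapse and neuron from 24. Among the RNA binding members, Zc3h14, a poly(A) binding protein, ran the other way: it had 6.13, 5.37 and 5.47 in testis against 2.93, 3.05 and 3.05 in kidney, 6.27-fold higher (adjusted p = 8.7e-07, limma). Among the ribosomal protein members, Rps20 had 2.89, 3.02 and 3.08 in testis and 0.69, 0.75 and 0.75 in kidney, and did not reach 5-fold. Rpl22 had 4.45, 4.35 and 4.28 in testis and 6.91, 6.63 and 6.56 in kidney.

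**Figure D5:**
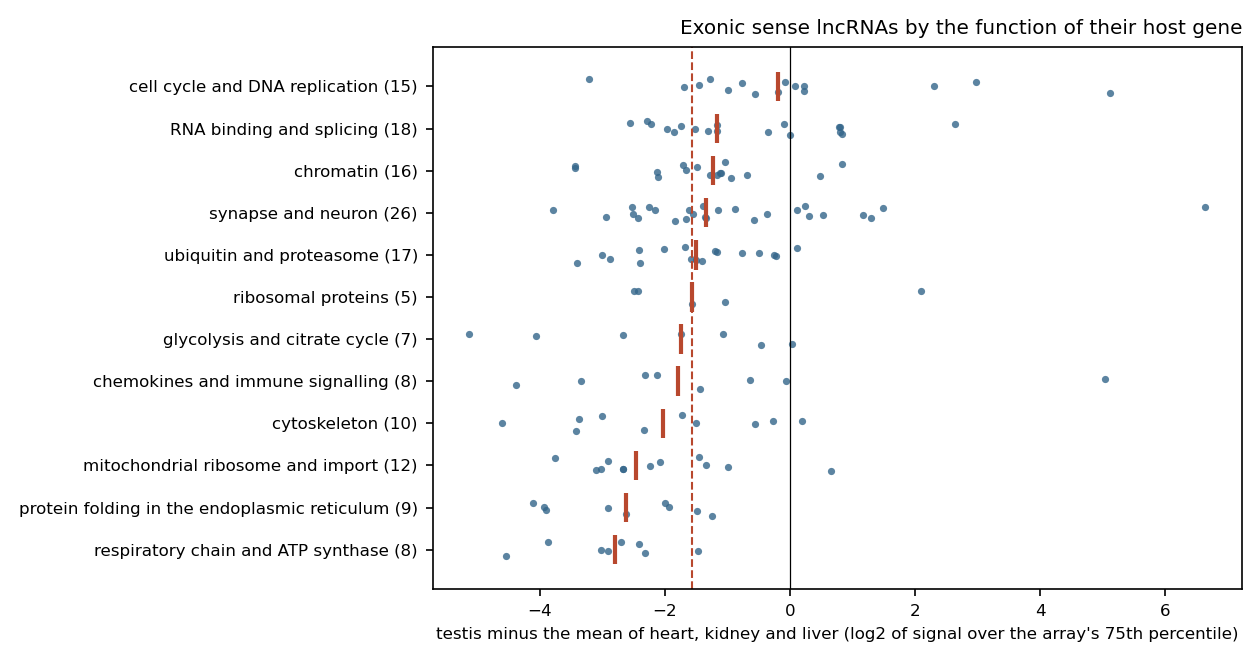
Testis level minus the mean of heart, kidney and liver (log2, horizontal axis) for exonic sense lncRNAs grouped by the function of the host gene, with the number of members in parentheses. Points are members, solid bars are list medians, and the dashed line is the median of all 427 members at −1.56. Lists of the respiratory chain, protein folding and mitochondrial ribosome lie to the left of that line and the cell cycle list to its right.

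GC-1 and GC-2 were set against testis to ask which exonic sense lncRNAs of these lines stand apart from the organ. GC-1 had 135 members higher and 16 lower than testis (35.4%; 29.3% of all probes, 17.4% higher and 11.9% lower), and GC-2 had 123 and 17 (32.8%; 29.1%, 16.7% and 12.4%). The comparisons share the testis arrays. As with the tissues, the scaling moved them: 52 and 16 held under the 3 scalings for GC-1 (5.74% and 11.7% of all probes), and 45 and 15 for GC-2 (5.56% and 11.9%). The share of lower calls went from 10.6% to 20.8% and 37.3% in GC-1, and from 12.1% to 22.1% and 42.3% in GC-2, after quantile normalization and with the percentile of probes detected on all arrays. In both lines 107 members were higher than testis (25.1%; 12.1% of all probes), of which 34 held under the 3 scalings (3.59% of all probes), and 12 were lower (2.81%; 11% of all probes), all 12 held. The members were chosen for signal in brain or in F9 cells, also a cultured line, and probes in the study's tables of specific transcripts were left out. The shares of higher and lower calls are thus partly set by the choice and are not read against those of all probes.

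Shisa4 showed the largest rise in the lines. Its probe gave 7.40, 6.80 and 6.84 in GC-1, 6.26, 6.02 and 6.01 in GC-2 and −2.95, −1.89 and −1.63 in testis, 577-fold and 305-fold (log2 differences 9.17 and 8.25, SE 0.47, adjusted p = 6.2e-09 and 1.5e-08, limma). AK181950, the other member in Shisa4, gave 545-fold and 270-fold. Homer3, a scaffold protein of synapses, had 0.93, 0.84 and 1.03 in GC-1 and 0.51, 1.21 and 1.36 in GC-2, and was not well above background on any testis array, at least 47.6-fold and at least 50.6-fold lower. Acot9, an acyl-CoA thioesterase on the X chromosome, had 6.94, 6.78 and 6.81 in GC-1 and 7.11, 7.31 and 7.22 in GC-2, against 0.49, 0.47 and 0.64 in testis. Pgk1, Elac2 and S100a16, which were lower in testis than in the other organs, were also among the 34.

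Among the 12 lower in both lines, BC038906 in Cds1 had 5.32, 5.07 and 5.17 in testis and −2.47, −1.76 and −2.11 in GC-2, a 157-fold difference, and was not well above background on any GC-1 array (at least 265.3-fold). Ccl27a had 7.78, 8.35 and 8.19 in testis against 2.48, 2.42 and 2.36 in GC-2, 51.5-fold, and was not well above background on any GC-1 array (at least 1852-fold). BC025019 in Hook1, a protein that links cargo to microtubules, had 2.77, 3.01 and 3.10 in testis. It was not well above background on any array of either line, at least 56.8-fold and at least 61.8-fold lower. BC038600 in Kcnj9 behaved alike, with testis at least 97.96-fold above GC-1 and at least 106.6-fold above GC-2. The testis members AK013192 and Lancl1 were lower in both lines as well, by 23.5-fold and 6.09-fold in GC-1. Cdc20 and Pttg1 were not.

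GC-1 and GC-2 differed in 8 members (1.87%; 3.32% of all probes, 2.08% higher and 1.23% lower in GC-1), 4 in each direction. Under the 3 scalings 3 were higher and 4 lower (1.78% and 1.14% of all probes, 2.92% in either direction). Ttc9 had 1.77, 1.17 and 1.12 in GC-1 and was not well above background on any GC-2 array, at least 20.3-fold. Jam2 had 3.07, 3.83 and 3.90 in GC-1 and 0.15, −0.10 and 0.00 in GC-2, a 12-fold difference (adjusted p = 2.2e-06, limma). Soga2 had 5.53, 5.30 and 5.23 in GC-1 against 4.30, 0.73 and 0.82 in GC-2, where replicate 1 stood well above the other two arrays. AK141620 in Unc13a, a protein of synaptic vesicle release, had −2.89, −2.21 and −2.43 in GC-1 and was at background in GC-2, so that GC-1 was at least 1.39-fold higher. This call did not hold after quantile normalization.

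In the other direction, Ccl27a had −2.84, −3.23 and −2.58 in GC-1, none of them well above background, against 2.48, 2.42 and 2.36 in GC-2, at least 35.9-fold. Cxcl14, also a chemokine, was not well above background on any GC-1 array and had 0.16, −0.33 and −1.50 in GC-2, at least 4.96-fold. Tbcb, a tubulin folding cofactor, had 1.18, 1.40 and 1.40 in GC-1, 4.23, 4.62 and 4.56 in GC-2, and 4.27, 3.80 and 3.81 in testis, so that GC-1 was 8.84-fold below GC-2 and 6.21-fold below testis. BC038906 was at least 1.69-fold higher in GC-2. The bounds of Cxcl14 and BC038906 lay below the 5-fold limit, and both lost the call with normexp. Ccl19, another chemokine member, was alike in the lines, with 5.47, 5.65 and 5.62 in GC-1 and 5.37, 5.69 and 5.63 in GC-2.

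There were 10 hosts with more than 1 member, which allows probes of the same gene to be set side by side over the arrays. The 3 members in Mtch1, a mitochondrial carrier family gene, had pairwise r of 0.984 to 0.999 over 24 arrays, and pairs in P4hb (0.995), Txn2 (0.994), Shisa4 (0.987) and Abhd12 (0.924) also ran together. The probes of the pair in Hnrnpa1 share bases. Not every host behaved so: r was 0.28 for the pair in Clstn3, −0.35 for Nrbp1 and −0.46 for Snx17. In Nrbp1, the member of that name stayed between 4.61 and 6.25 on all 24 arrays. The pairs that ran together share the arrays and their scaling, and no p is given.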

How the data were processed

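Total RNA of each sample was labelled with Cy3, hybridized to an Arraystar mouse lncRNA array (V3.0) and quantified with Feature Extraction, and normalized with GeneSpring by the authors. RNA was isolated with RNeasy Plus per the methods and with Trizol per the labels. The authors deposited 1 scanner file per array, with intensities of 62243 spots, background-subtracted and not scaled between arrays. A deposited matrix held the same intensity values for 60804 probes (largest relative difference 0.000228). No spot was saturated.

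Members were read from the supplementary tables of the study by their relationship column. The tables were held in shortened form. Members, host gene lists, words and the rule for naming members were chosen with earlier results of these data known, and the TG and CA runs and the X chromosome were looked at after values of members had been seen. The rule named the 8 brightest, 8 most even and 8 narrowest members, the 4 furthest above and below for each tissue and line comparison, those with a B2 or B1 word, and the extremes of each host list. Other members named were chosen after their values were seen.

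Levels are log2 of the processed intensity divided by its 75th percentile over the transcript probes of that array. limma (3.58.1, R 4.3.3; lmFit and eBayes) was fitted over all probes, on the 15 tissue arrays and on the 12 arrays of testis and lines, in place of the methods' t-test. Where a group was not well above background on any array, its floor per array was the lowest signal well above background or the probe's own. On simulated data for testis against heart, 94.5% of 200 probes changed by 3.5 on the log2 scale were recovered over 60804 probes. The number of arrays, 3 in each group, limits the precision. The median SD of members within a group ran from 0.15 in testis to 0.33 in liver. Replicate 1 of every group was on slide 1. Slide 2 held the other brain, kidney, liver and testis arrays, and slide 3 those of heart and the lines. Same-numbered arrays of GC-1 and GC-2 deviated together in every pair (r of 0.291, 0.126 and 0.131), so the numbers may pair these lines. Since replicate 1 of both was on slide 1 and the rest on slide 3, pairing and slide cannot be told apart. The adjusted p printed for GC-1 against GC-2 comes from the fit without pairing, and a replicate block was an alternative. In each of the other tested comparisons at least 1 pair had an r under 0.1, and numbers were not taken to pair samples. Alternatives were other scalings, normexp on median signals, a filter on dim probes, a 2-fold limit, blocks, left-out arrays, the deposited matrix and the t-test. Tables were handled with Python 3.11.15, pandas 2.3.3, numpy 2.4.6, scipy 1.17.1 and matplotlib 3.10.9.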

Additional observations from a re-analysis of the deposited data

How the results depend on the processing

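Of the 47 tested contrasts of named members, none reversed under any alternative. Out of their values under alternatives, 1055 stayed on their side of the limits and 21 did not: with normexp H2-Bl, Gabarapl1, AK053689, EIG 180, Ldhb, Soga2, Ttc9, Cxcl14, BC038906 and AK141620 lost a call, as did Gabarapl1 and AK141620 after quantile normalization. H2-Bl, Soga2 and AK141620 lost theirs by the methods' t-test, AK141620 without GC-1 replicate 2 or GC-2 replicate 1, and Gss between kidney and liver without single kidney or liver arrays. The cause was not tested.

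A 2-fold limit called 306 members between testis and heart, 319 between testis and kidney, 315 between testis and liver, 95 between heart and kidney, 162 between heart and liver, 129 between kidney and liver, 35 between the GC lines, 306 between GC-1 and testis and 297 between GC-2 and testis. Quantile normalization called 94 between testis and liver. The percentile of probes detected on all arrays called 58, 64 and 81 between testis and heart, kidney and liver, 83 between GC-1 and testis and 78 between GC-2 and testis. Normexp called 59, 65 and 66 for the 3 testis comparisons and 5 between the GC lines. These counts are given without the share of all probes at the same setting. They show how far the counts move with the processing and are not read as a result about the members. The median spread over 6 groups, 2.91, was 2.35, 2.24 and 2.41 under quantile normalization, that percentile and normexp.

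Without single arrays, counts ran from 103 to 121 (testis and heart), 114 to 128 (testis and kidney), 150 to 159 (testis and liver), 14 to 17 (heart and kidney), 60 to 66 (heart and liver), 32 to 41 (kidney and liver), 7 to 9 (GC lines), 144 to 152 (GC-1 and testis) and 138 to 141 (GC-2 and testis). Detection in all 8 groups ran from 389 to 391, and the spread from 2.84 to 2.93. With another flag 398 members were detected in all 8 groups, and with 1 common limit 393. The replicate block left all 9 counts as they were (105, 121, 151, 14, 64, 38, 8, 151 and 140), including the 8 between the GC lines, whose same-numbered arrays deviated together. The slide block gave 107, 121, 151, 13, 66, 38, 8, 136 and 137, and the deposited matrix gave the main counts. Within slide 2, 120, 166 and 36 members were called between testis and kidney, testis and liver, and kidney and liver. Within slide 3, 8 were called between the GC lines. Comparisons of heart with the other tissues, and of the lines with testis, had on slide 1 only 1 array a group. The t-test with Benjamini-Hochberg called 105, 120, 151, 13, 61, 35, 6, 151 and 140, and without it 105, 120, 151, 14, 62, 36, 8, 151 and 140. Probes below background carry only a limit, and dim liver probes most.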

Other observations

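The 12 members on the X chromosome all lay lower in testis than the mean of heart, kidney and liver, with a median difference of −2.01 on the log2 scale against −1.53 for the 415 on autosomes. By this scaling 82.4% of the autosomal members were below 0 too. After quantile normalization 11 of the 12 and 69.9% of the autosomal members were below 0, and with the percentile of probes detected on all arrays 9 of the 12 and 61.4%. After quantile normalization the X members had a median of −1.57 and with the percentile of probes detected on all arrays −0.82, against −0.88 and −0.36 for all members. The lowest were Pgk1 (−5.12), Acot9 (−3.70), Prps1 (−3.43) and Smc1a (−3.20), and the nearest to 0 were AK179207 in Tmem164 (−0.48) and Amelx (−0.89). Prps1 is one of the TG probes. Smc1a, a subunit of cohesin, stood at −0.57, −0.85 and −0.84 in testis, 4.26, 4.05 and 4.01 in GC-1 and 5.20, 5.05 and 4.90 in GC-2. Acot9, Pgk1 and Smc1a were each higher in both GC lines than in testis under the 3 scalings. The X chromosome was singled out after these values were seen, and no test was made.

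Across the 427 members, Spearman's rho with the mean level of the 6 groups was −0.07 for the GC content of the probe, 0.03 for its place along the host gene and −0.21 for the length of the RNA. Members are not independent replicates, and these values are a description.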
